A study of Mus musculus with 16 samples.

Results

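The regions described here were called as open chromatin in all peak lists of progenitors with Flt3-ITD and in no other list, or the reverse. ATAC-seq, which reads out where a transposase can cut DNA, had been run on blood progenitors (labelled hematopoietic progenitor/MPP) from animals aged 21 days. There were 16 samples in 8 groups, and each pair of samples had 1 deposited peak list. Set 1 held wildtype, Runx1-het, Flt3-ITD and combined Flt3-ITD/Runx1-het cells. Set 2 held wildtype, NUP98-HOXD13, Flt3-ITD and NUP98-HOXD13/Flt3-ITD cells. Only the naming style of the titles separates the sets. How the sets differ, the copies of the Flt3-ITD allele, the promoter of the fusion gene and any pooling of mice were not stated in the labels, which also do not say whether the 2 samples of a group came from separate animals. Overlapping peaks (1 bp or more) on chromosomes 1 to 19 of the 8 lists were joined into 118981 union regions. The first class held the 71 regions (0.0597%) with a peak in all 4 Flt3-ITD lists and in none of the other 4. The second class held the 230 regions (0.193%) with a peak in all 4 lists without Flt3-ITD and in none of the Flt3-ITD lists. The regions were chosen by the presence of peaks in the lists, so the counts and the peak values below are descriptions and were not tested. The sizes of the classes moved with the lengths of the lists, and with equal lengths they were 101 and 135.

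FLT3 is a receptor tyrosine kinase of early progenitors that responds to FLT3 ligand, and an internal tandem duplication (ITD) in its juxtamembrane part makes it signal without ligand, through STAT5 and the RAS-MAPK pathway among others. RUNX1 is a transcription factor needed for blood formation. NUP98-HOXD13 is a leukaemia fusion of a nuclear pore protein with a homeobox factor. Open chromatin marks promoters, where transcription starts, and distal elements such as enhancers, which bind lineage factors far from the gene they act on. A gene named beside a region below is therefore the nearest protein-coding gene and not a shown target.

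Most of these regions lay away from promoters, so few sequences could be shown. A promoter window, 250 bases before to 50 after an annotated start site in the RefSeq table of GRCm38.p6, overlapped 1 of 70 regions of the Flt3-ITD class and 14 of 218 regions of the other class. The counts cover the regions on chromosomes with entries in that table, which lacks some genes (16457 of 20665 protein-coding genes had an entry). The 250 bases upstream of the start site are printed for the only such region of the first class and for the 5 leading ones of the second, because these are the places where a divided region touched a gene start. Capitals mark matches to the letters searched.
C130050O18Rik, in the Flt3-ITD lists, chr5:139405034-139405283, plus strand: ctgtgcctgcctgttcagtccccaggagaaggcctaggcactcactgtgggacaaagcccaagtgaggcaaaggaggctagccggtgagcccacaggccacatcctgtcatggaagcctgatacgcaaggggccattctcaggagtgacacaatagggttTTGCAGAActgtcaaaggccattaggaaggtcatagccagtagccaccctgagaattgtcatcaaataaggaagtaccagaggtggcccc
Ankrd22, in the lists without Flt3-ITD, chr19:34166042-34166291, minus strand: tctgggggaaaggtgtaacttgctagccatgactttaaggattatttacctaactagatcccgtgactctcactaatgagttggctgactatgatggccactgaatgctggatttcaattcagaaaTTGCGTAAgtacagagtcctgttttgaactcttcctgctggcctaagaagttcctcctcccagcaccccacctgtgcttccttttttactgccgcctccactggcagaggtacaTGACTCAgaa
Izumo1r, in the lists without Flt3-ITD, chr9:14903768-14904017, minus strand: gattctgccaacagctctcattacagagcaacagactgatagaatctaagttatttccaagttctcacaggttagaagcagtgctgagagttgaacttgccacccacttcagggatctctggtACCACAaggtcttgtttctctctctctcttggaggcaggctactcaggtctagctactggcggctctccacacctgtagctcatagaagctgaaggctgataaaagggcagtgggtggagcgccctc
Celf2, in the lists without Flt3-ITD, chr2:7081303-7081552, minus strand: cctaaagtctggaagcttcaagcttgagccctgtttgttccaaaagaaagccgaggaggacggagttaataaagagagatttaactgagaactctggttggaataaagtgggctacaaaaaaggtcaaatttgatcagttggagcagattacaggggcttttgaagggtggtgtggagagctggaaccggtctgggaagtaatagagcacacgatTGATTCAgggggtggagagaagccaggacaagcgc
Hrk, in the lists without Flt3-ITD, chr5:118169514-118169763, plus strand: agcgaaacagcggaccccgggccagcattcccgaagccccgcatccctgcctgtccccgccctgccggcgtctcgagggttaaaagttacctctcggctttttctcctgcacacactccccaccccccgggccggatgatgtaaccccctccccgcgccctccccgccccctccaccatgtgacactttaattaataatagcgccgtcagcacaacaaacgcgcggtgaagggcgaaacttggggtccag
Mrc1, in the lists without Flt3-ITD, chr2:14229164-14229413, plus strand: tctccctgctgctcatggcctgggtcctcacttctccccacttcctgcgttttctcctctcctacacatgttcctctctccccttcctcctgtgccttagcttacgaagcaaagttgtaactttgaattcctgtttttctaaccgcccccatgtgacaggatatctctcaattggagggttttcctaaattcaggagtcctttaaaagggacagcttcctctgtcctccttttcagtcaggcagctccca

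The letters were searched on both strands in these 250 bases and in those of all 20085 listed promoters on the same chromosomes, and the motifs may overlap. The C/EBP-type letters TTGCNNAA occurred upstream of C130050O18Rik and in 3 of the 14 windows of the second class, against 9.19% of all promoters. At Evl, 1 of the 3, the match lay outside the open region, which covered 58 of the 250 bases. Ankrd22 held the C/EBP-type letters together with the AP-1-type letters TGANTCA. The AP-1-type letters were also found at Celf2 and so in 2 of 14 windows, against 6.18%. The RUNX-type letters TGTGGT were found in 2 of 14, at Izumo1r and Ak1, against 12.2%. The STAT-type letters TTCNNNGAA, present in 6.66% of all promoters, were in 0 of the 14 windows and not at C130050O18Rik. The ETS-type letters CCGGAAGT (3.88% of promoters) and GAGGAAGT (2.26%), the GATA-type letters AGATAA (8.72%) and an IRF-type motif (2.97%) were also in none of them (0). With so few windows, these counts describe the windows and say nothing of the factors, and the letters in distal regions were not read because no genome sequence was used here.

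The regions of the Flt3-ITD class with the highest values were 3 sites at Syt1, Ncam2 and Got2. Column 7 of the deposited lists holds a peak's fold enrichment and column 8 the −log10 of its p-value, both the authors'; with several peaks of a list in a region, the best by −log10 p was taken. Regions were ordered by the lowest −log10 p among the 4 lists that held them. At the top was a region inside Syt1, which encodes a calcium sensor of synaptic vesicles (chr10:108991248-108991935, 17176 bp downstream of the start site). It had a −log10 p of 108 in set-1 Flt3-ITD, 275 in Flt3-ITD/Runx1-het, 67.0 in set-2 Flt3-ITD and 64.6 in NUP98-HOXD13/Flt3-ITD. Its fold enrichment was 18.6, 28.4, 19.4 and 12.5 in the same order, and these peaks stood at or above 80.9%, 94.6%, 90.7% and 75.5% of the peaks of their own lists. No peak of the other 4 lists lay within 17397 bp. By both values Flt3-ITD/Runx1-het was highest and NUP98-HOXD13/Flt3-ITD lowest, while set-2 Flt3-ITD was below set-1 Flt3-ITD in −log10 p and above it in fold and in rank. In bulk samples a change in the share of a cell type and a change within each cell cannot be told apart.

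The second region was intergenic, 132475 bp from Ncam2, which encodes a neural cell adhesion molecule (chr16:81756765-81757482). Its −log10 p was 211, 185, 60.1 and 63.5 in the same order of lists, and its fold enrichment reached 33.7 in Flt3-ITD/Runx1-het, the highest of the class. The nearest peak of a list without Flt3-ITD was 133195 bp away, and the nearest union region of any kind 20067 bp away. The third region and that of rank 14 were neighbours on chromosome 8, 271409 and 324812 bp from Got2, which encodes the mitochondrial aspartate aminotransferase. At chr8:96159810-96160675 the −log10 p was 121, 240, 46.1 and 202, and at chr8:96213213-96213934 it was 24.6, 112, 14.2 and 51.8. Both were highest in Flt3-ITD/Runx1-het and second highest in NUP98-HOXD13/Flt3-ITD, and 52538 bp of DNA separated them. These were the 2 regions of the class with another member within 100 kb.

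Below these 3 leading sites the values dropped. The next region lay 34058 bp upstream of Crisp1, which encodes a secretory protein of the epididymis (chr17:40353265-40354116), with a −log10 p of 49.3, 57.9, 17.95 and 18.7. A region inside Mrps31, a mitochondrial ribosomal protein gene (chr8:22422944-22423643), had 33.1, 49.0, 17.95 and 18.7. Inside Gnai1, which encodes an inhibitory G protein subunit (chr5:18318833-18319597), the values were 17.8, 32.3, 21.8 and 19.6. This was the only 1 of the 71 regions with its lowest value in set-1 Flt3-ITD. Near Acox3, a peroxisomal acyl-CoA oxidase gene (chr5:35624799-35625558, 10591 bp away), they were 72.4, 93.9, 17.4 and 32.5. Inside Disp1, whose product releases hedgehog ligands (chr1:183134284-183134985), they were 56.7, 89.5, 19.2 and 17.0. In both, each set-1 value was above both set-2 values. The same held at Tmem212 (36416 bp away, 80.9, 62.7, 17.4 and 19.6), B4galnt3, a glycosyltransferase gene (4769 bp, 26.1, 32.0, 16.7 and 25.1), and Stard13 (inside the gene, 41.2, 67.1, 16.4 and 33.8). By rank within each list this order was kept at Acox3, Disp1 and Tmem212 only. The B4galnt3 peaks stood at or above 40.4%, 47.4%, 52.0% and 50.1% of their lists, so higher in set 2. At Stard13 set-1 Flt3-ITD (55.1%) ranked below NUP98-HOXD13/Flt3-ITD (59.0%). The list of 12 ends with a region 236366 bp from Sdk2, a synaptic adhesion gene, at 28.8, 106, 17.3 and 15.4. Of these 12 regions, 11 were again members when every list was shortened to the same number of peaks, and Gnai1 was not.

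**Figure D1:**
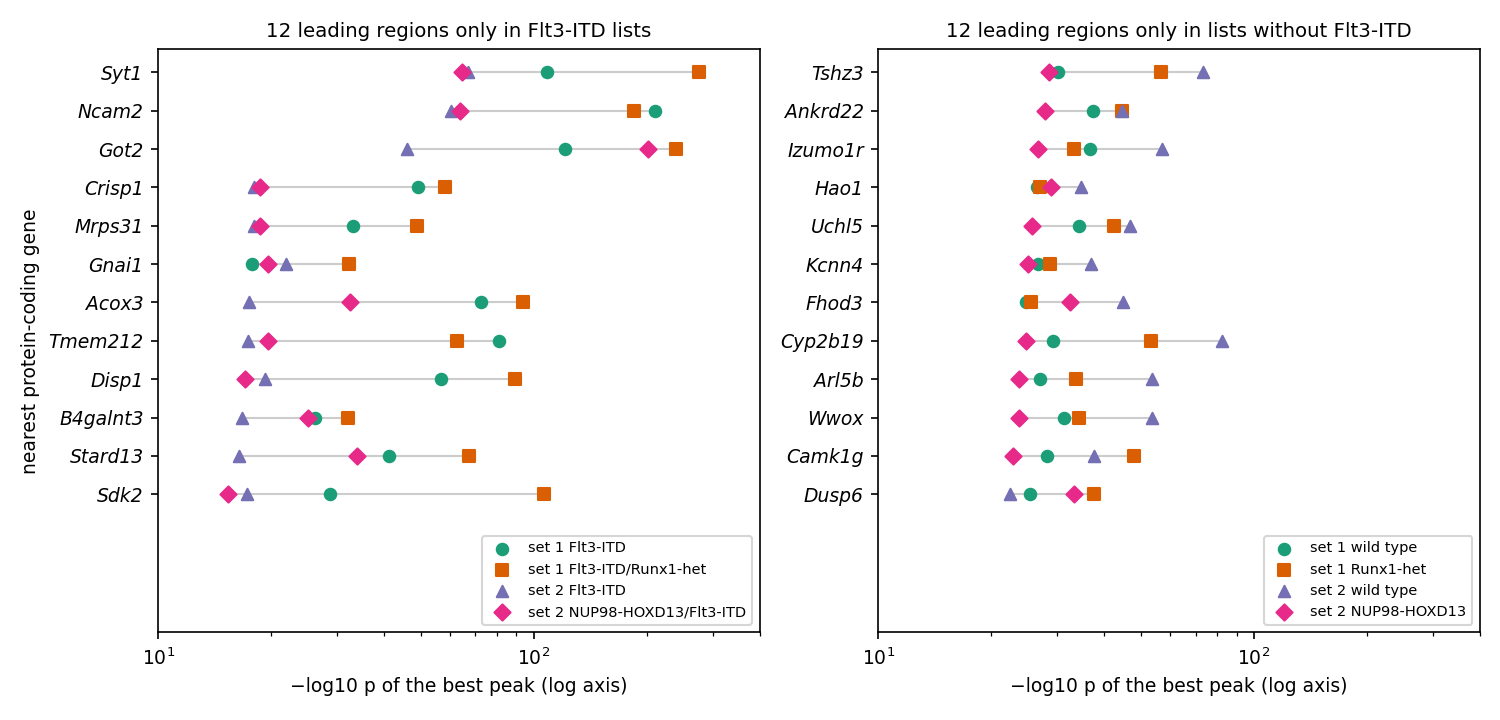
−log10 p of the best peak (log axis) in each of the 4 lists that hold a region, for the 12 leading regions of each class, labelled by the nearest protein-coding gene, with 1 region per gene. Points are lists and grey lines join the lowest and the highest of a region; Syt1, Ncam2 and Got2 exceed 46 in all 4 Flt3-ITD lists, while the leading regions of the other class span 22.4 to 82.6.

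In the class without Flt3-ITD no region exceeded a −log10 p of 28.5 in all 4 lists. The first lay 201008 bp from Tshz3, which encodes a zinc finger factor (chr7:36974561-36974994). Its −log10 p was 30.1 in set-1 wildtype, 56.6 in Runx1-het, 73.1 in set-2 wildtype and 28.5 in NUP98-HOXD13, and no peak of a Flt3-ITD list was within 187201 bp. The region over the start of Ankrd22 (chr19:34165899-34166273), an ankyrin repeat gene whose upstream sequence is given above, had 37.4, 44.7, 44.6 and 27.7, with the nearest Flt3-ITD peak 1453 bp away. At the start of Izumo1r, which encodes a folate-receptor-like protein of oocytes and regulatory T cells (chr9:14903750-14904409), the values were 36.6, 33.3, 56.9 and 26.6. In all 3 the NUP98-HOXD13 list was the lowest. Near Hao1, a liver oxidase gene (chr2:134482589-134483069, 14292 bp away), they were 26.5, 27.0, 34.7 and 28.9, but a Flt3-ITD list held a peak 284 bp away, and the region was no member once peaks within 500 bp were merged.

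The other leading regions of this class had lowest values of 22.4 to 25.6. Near Uchl5, which encodes a deubiquitinase of the proteasome (44638 bp away), the −log10 p was 34.3, 42.5, 46.9 and 25.6. Inside Kcnn4, a calcium-activated potassium channel gene of blood cells (chr7:24384938-24385214), it was 26.6, 28.7, 36.9 and 25.01 at a fold enrichment of 3.59 to 3.79. Inside Fhod3, a formin gene, it was 24.8, 25.5, 44.8 and 32.5. At Cyp2b19, a cytochrome P450 gene (3157 bp away), it was 29.3, 53.3, 82.6 and 24.7, and set-2 wildtype held the highest value of the 12 regions. Arl5b (74892 bp away), Wwox (inside) and Camk1g, a calmodulin-dependent kinase gene (332698 bp away), followed with lowest values of 23.8, 23.8 and 22.8. The last of the 12 was 17097 bp from Dusp6, the phosphatase that inactivates ERK and is itself induced by MAPK signalling (chr10:99284586-99285387), with 25.4, 37.7, 22.4 and 33.2. It was the only one of the 12 that was no member when all lists were shortened to the same number of peaks.

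As a whole, the regions were of low to middle rank in their lists. In the Flt3-ITD class the median −log10 p was 30.9 in set-1 Flt3-ITD, 41.6 in Flt3-ITD/Runx1-het, 10.7 in set-2 Flt3-ITD and 17.0 in NUP98-HOXD13/Flt3-ITD, where the medians of all peaks of these lists were 35.3, 34.6, 15.8 and 25.1. Only in Flt3-ITD/Runx1-het was the median −log10 p of the class above that of its list. Median fold enrichment of the class was 8.26, 9.47, 6.17 and 5.45, against list medians of 7.74, 8.07, 7.41 and 5.62, so by fold the class was above its list in both lists of set 1. The highest of the 4 values was in Flt3-ITD/Runx1-het for 49 of the 71 regions and in set-2 Flt3-ITD for 0, and the lowest was in set-2 Flt3-ITD for 55. The set-2 Flt3-ITD list was the shortest, with 55884 regions against 70341 to 86091 in the other 7. In 5 of the 71 regions all 4 peaks were above the middle of their lists, and in 3 (Syt1, Ncam2 and the first Got2 region) all 4 were in the top 25%.

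The class without Flt3-ITD had median ranks at or above 30.1%, 33.04%, 39.5% and 36.9% of the peaks of set-1 wildtype, Runx1-het, set-2 wildtype and NUP98-HOXD13. The Flt3-ITD class had 45.8%, 55.8%, 32.8% and 38.2% in its lists, so it stood higher in set 1. In set 2 the order was mixed. The rank in NUP98-HOXD13/Flt3-ITD (38.2%) lay between those in NUP98-HOXD13 (36.9%) and wildtype (39.5%), and that in Flt3-ITD (32.8%) below both. For the class without Flt3-ITD the median −log10 p was 17.7 in set-1 wildtype, 18.8 in Runx1-het, 26.9 in set-2 wildtype and 15.9 in NUP98-HOXD13, below the medians of all peaks of these lists, 33.5, 33.3, 38.6 and 24.7. Median fold enrichment was 6.10, 5.89, 6.31 and 5.004, against list medians of 7.61, 7.13, 6.96 and 5.86. Set-2 wildtype, the longest list, held the highest −log10 p for 135 of the 230 regions, and NUP98-HOXD13 the lowest for 120. In 3 of the 230 all 4 peaks were above the middle of their lists, and in 0 were all 4 in the top 25%. The highest single value was 119, in set-2 wildtype, 212148 bp from BC052040, where the other 3 lists had 19.7, 21.6 and 16.7. That region thus stood out in 1 list alone.

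**Figure D2:**
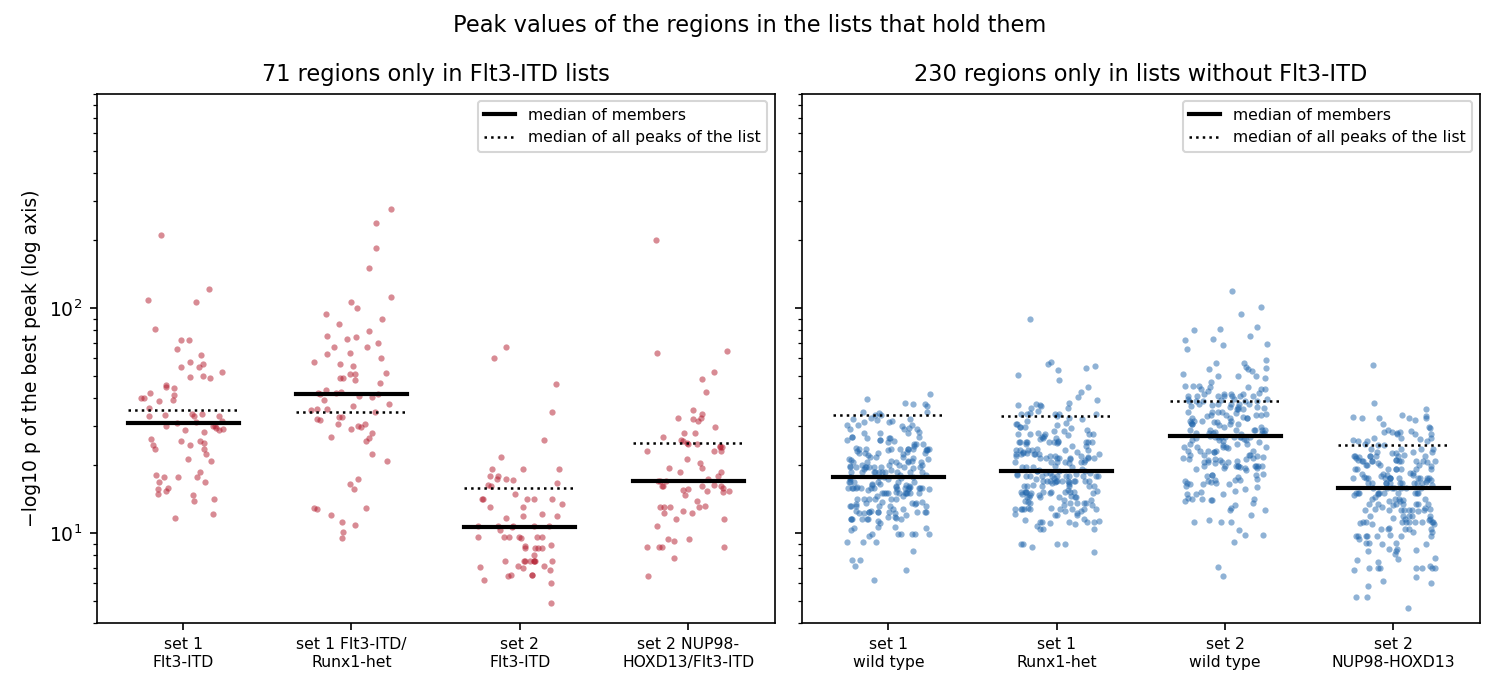
−log10 p of the best peak (log axis) of every region in the 4 lists that hold it, with the 71 regions of the Flt3-ITD class on the left and the 230 of the other class on the right. Each point is a region, solid bars are the medians of the class and dotted bars the medians of all peaks of the list; the solid bar lies above the dotted bar only in Flt3-ITD/Runx1-het (41.6 against 34.6).

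The 3 Flt3-ITD-class regions with the lowest values lay at C130050O18Rik (lowest −log10 p 4.90), Ankrd55 (227457 bp away, 5.98) and Fut8 (102633 bp away, 6.22). In the other class they lay inside Shq1 (4.66), near Herpud2 (58779 bp away, 5.22) and inside Otud7a (5.22). Just outside, 198 regions had a peak in all 4 Flt3-ITD lists and in 1 other list, where its −log10 p ran from 7.68 to 96.6 with a median of 23.5. The weakest of these extra peaks were inside Irs1, the insulin receptor substrate gene (7.68 in NUP98-HOXD13), 176730 bp from Pard3 (9.82 in set-2 wildtype) and 23006 bp from Crisp1 (10.4 in set-2 wildtype). For the class without Flt3-ITD 948 regions had 1 extra list, with a median of 21.4 there. Their weakest extra peaks were inside Hhat (2.22 in Flt3-ITD/Runx1-het), Pde4a (3.39 in set-2 Flt3-ITD) and Lgi1 (4.47 in Flt3-ITD/Runx1-het).

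The size of each class depended on single lists. Without set-2 Flt3-ITD the Flt3-ITD class held 277 regions in place of 71, and without NUP98-HOXD13/Flt3-ITD it held 220. It held 149 without set-2 wildtype and 129 without Runx1-het, and 98 to 105 without any 1 of the other 4 lists. The other class of 230 rose to 604 without set-1 wildtype, 570 without NUP98-HOXD13, 567 without NUP98-HOXD13/Flt3-ITD, 541 without set-1 Flt3-ITD, 468 without Flt3-ITD/Runx1-het and 395 without Runx1-het, and was 299 without set-2 Flt3-ITD and 329 without set-2 wildtype. A rule over fewer lists is easier to meet, and every such count was above the full one. When each list kept only its 84080 peaks with the highest −log10 p, the length of the shortest list, the classes held 101 and 135 regions. Of the 71 regions 34 (47.9%) were among those 101, and of the 230 regions 44 (19.1%) were among the 135. The ratio of the classes was thus much smaller with equal lengths than as deposited.

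**Figure D3:**
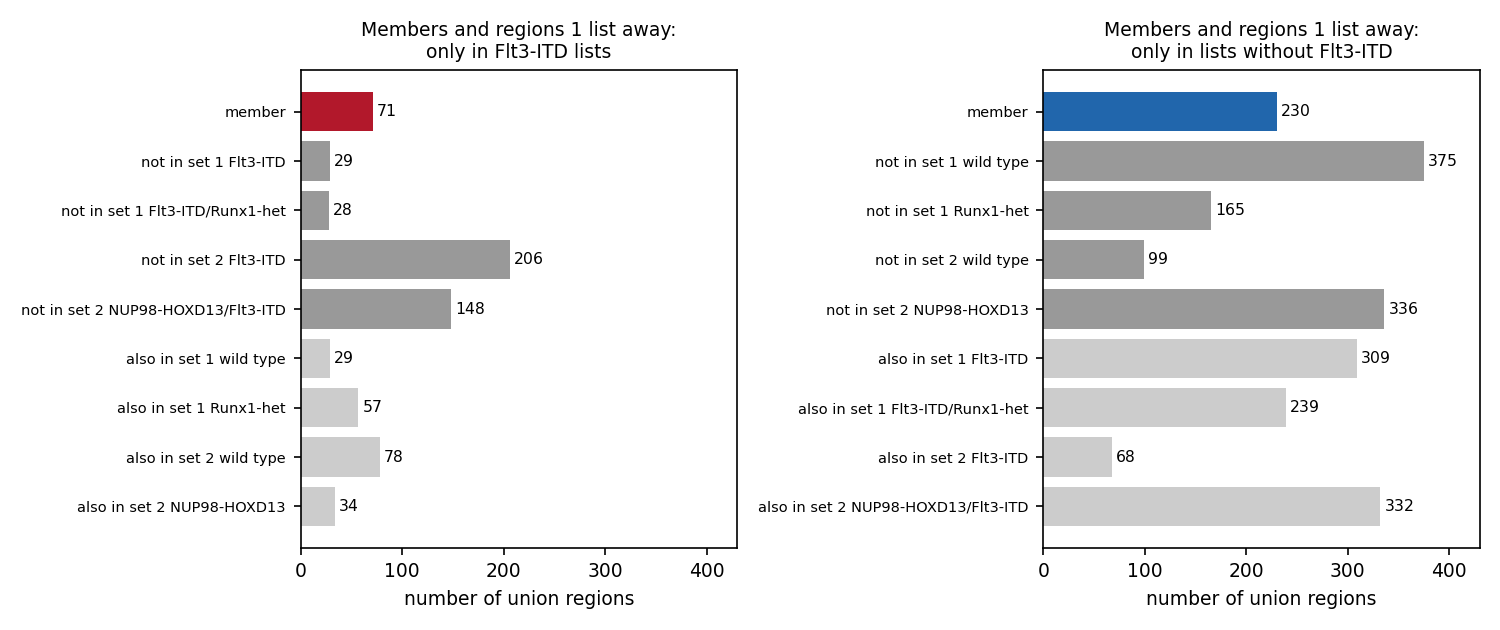
Number of union regions that meet the rule (coloured bar), that meet it but for 1 list of the class without a peak (dark grey), and that have a peak in 1 list more (light grey), for each class. In the Flt3-ITD class 206 regions fail in set-2 Flt3-ITD alone, more than the 71 members.

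Both classes were mostly distal. Inside the span of a protein-coding gene lay 31 of the 71 regions of the Flt3-ITD class (43.7%, 31.9 to 56.0) and 122 of the 230 of the other (53.0%, 46.4 to 59.6); the ranges are exact (Clopper-Pearson) 95% binomial intervals and cover counting error only. Of the 7557 regions present in exactly 4 lists, 53.8% lay inside a gene, and of all union regions 57.5%. A protein-coding gene was within 10 kb of 42 regions of the first class (59.2%) and 161 of the second (70.0%), against 67.5% of the 4-list regions. Within 100 kb it was so for 62 (87.3%) and 205 (89.1%), against 89.5%. The intervals of both classes overlapped in each of these shares. For the regions that lay outside gene spans the median distance to the nearest one was 18297 bp in the first class, 19066 bp in the second and 27170 bp for the 4-list regions.

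A listed promoter was met by a larger share of the class without Flt3-ITD than of the regions in exactly 4 lists. This difference was not tested, and the regions are not replicates. The share of the 4-list regions lay inside the interval of the Flt3-ITD class. A promoter window overlapped 1 of 70 of its regions (1.43%, 0.0362 to 7.70), 14 of 218 of the other class (6.42%, 3.56 to 10.5), 2.49% of the 4-list regions, 9.59% of all regions and 23.5% of regions present in all 8 lists. Of the regions whose nearest gene had a listed start site, that site was within 1 kb for 2 of 53 (3.77%) and 18 of 168 (10.7%). It was so for 6.43% of the 4-list regions and 15.5% of all union regions. The median distance in the classes was 31561 bp and 29954 bp. The site was over 10 kb away for 47 of 53 (88.7%, 77.0 to 95.7) and 119 of 168 (70.8%, 63.3 to 77.6). This held for 72.8% of the 4-list regions and 66.2% of all union regions, and the differences were not tested. The region over a promoter of Mrc1, the macrophage mannose receptor gene (chr2:14228519-14229985, 1467 bp wide), had a −log10 p of 16.1, 28.0, 26.0 and 14.8 in set-1 wildtype, Runx1-het, set-2 wildtype and NUP98-HOXD13. Over a promoter of Celf2, an RNA-binding protein gene, the values were 25.8, 37.2, 51.3 and 19.3, and at Hrk, which encodes a pro-apoptotic BH3-only protein, 22.2, 16.4, 24.2 and 18.5. The other promoters of this class were those of Rnase4, Iho1, Sstr4, Evl, Ccr9, the chemokine gene Cxcl1, Garem2, Ak1 and Cntn2, with lowest values of 7.03 to 12.5. With lists of equal length the Ankrd22, Izumo1r and Celf2 regions were members again. All other promoter regions of this class, Hrk and Mrc1 among them, were not.

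The union regions of the Flt3-ITD class had a median width of 700 bp (binomial 95% interval of the median 589 to 722) and ranged from 297 to 1434 bp. Those of the other class had a median of 478 bp (445 to 528) and ranged from 223 to 1482 bp, and those present in exactly 4 lists a median of 513 bp. Under 400 bp were 5 of the 71 (7.04%) and 81 of the 230 (35.2%), against 27.6% of the 4-list regions. A union region can be wider than any peak in it, but the best peak gave the same order, with medians of 511, 345 and 380 bp. The widest of the Flt3-ITD class lay near Akap11 (chr14:78473133-78474566, 17680 bp away) and Mgst1 (chr6:138128372-138129678, 1307 bp wide), and those of the other class inside Rgs6 (chr12:83072928-83074409) and over Mrc1. The Akap11 region had a median best-peak width of 460 bp and was no member when an overlap of at least 100 bp was required. Depth was not known, and its part in the width difference between the classes was not tested. A single summit in each of the 4 lists was found for 34 of the 71 regions and 139 of the 230.

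**Figure D4:**
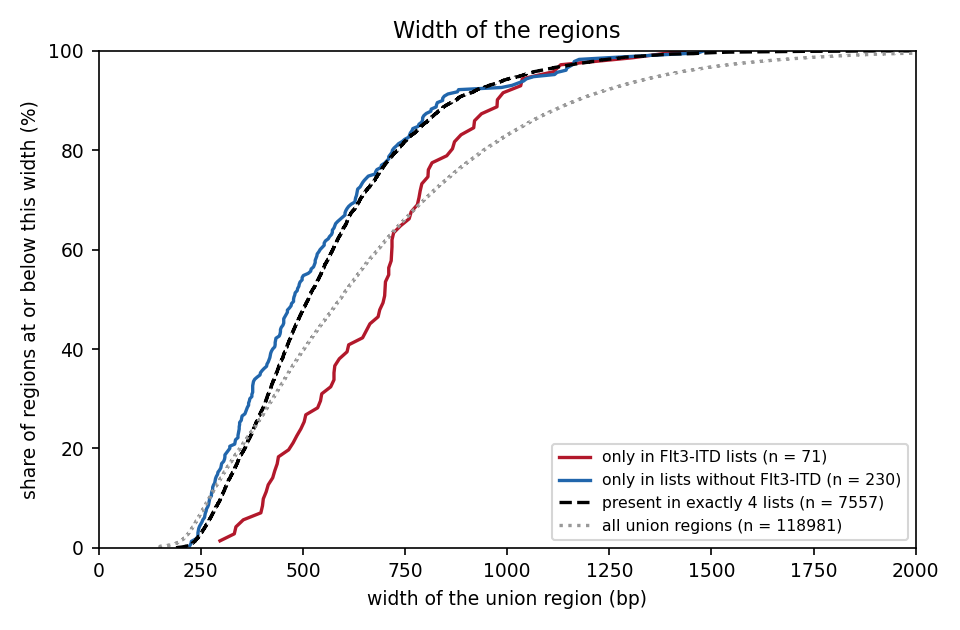
Cumulative share of regions (%) by width of the union region (bp), for both classes, the regions present in exactly 4 lists and all union regions. The curve of the Flt3-ITD class lies to the right of that of the other class over most of its course, with medians of 700 and 478 bp.

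The regions were scattered, and a minority lay within 500 bp of a peak of the lists that lacked them. Both classes had members on all 19 chromosomes. Chromosome 10 held 8 of the 71 (11.3%, against 5.80% of all union regions), and chromosome 1 held 28 of the 230 (12.2%, against 7.32%). Where a chromosome held more than 1 member of a class, the median distance to the next one was 11654851 bp and 3916291 bp. Within 500 bp of a region, at least 1 of the lists without it held a peak for 6 of the 71 and 40 of the 230, and within 10 kb for 53 and 177. Such counts were not made for other regions. Another union region of any kind lay within 1 kb of 21.1% of the first class and 27.4% of the second. This was so for 24.3% of the 4-list regions and 24.8% of all union regions. The nearest region present in all 8 lists was at a median of 10265 bp and 10279 bp, against 10603 bp for the 4-list regions. The distance to regions shared by every list was thus similar in both classes and in the 4-list regions. No region overlapped a miRNA hairpin of the RefSeq table (0 of both classes).

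Pairs of regions at 1 gene were few. Lgr4, a receptor for R-spondins, held 2 regions of the class without Flt3-ITD inside it, at chr2:109996376-109996846 (19.7, 20.7, 36.5 and 25.6) and chr2:110007399-110007794 (18.8, 33.7, 19.8 and 20.1). They were 10553 bp apart, the closest pair of the class. Evl, an actin regulator, and Zfp521, a zinc finger factor of early progenitors, each held 2 as well. Cadm1, a cell adhesion gene, St7 and Cnksr3 each had 1 region of either class. The Cadm1 region of the Flt3-ITD class (chr9:47626755-47627400) had 16.9, 15.7, 9.66 and 16.2, and that of the other (chr9:47587667-47588201) 14.1, 20.7, 31.6 and 15.9. Both lay in the span of the gene, so 1 gene held open regions of opposite membership as deposited. With lists of equal length neither Cadm1 region and neither St7 region was a member, while both Cnksr3 regions were. Neither Cnksr3 region was a member once peaks within 500 bp were merged.

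In 18 gene lists, chosen with earlier results of these data known, 344 of 361 genes had a union region nearest to them within 100 kb. A region of the Flt3-ITD class lay nearest to 2 of the 344 (0.581%), against 62 of all 17266 such genes (0.359%), and a region of the other class to 13 (3.78%), against 202 (1.17%). List genes had a median of 7 union regions and all genes of 4, and the part of this in the counts was not tested. With lists of equal length the counts were 6 and 2, of which 1 and 1 were the same regions (Syt1 and Ifi44). The larger count was then in the Flt3-ITD class. The share over all genes was not computed at equal lengths, so 6 and 2 have no background beside them. Of 19 STAT5 targets with a region, which include the feedback inhibitors Cish and Socs2, 0 were nearest to a region of either class as deposited. With equal lengths regions 3693 bp from the cytokine gene Osm and 4618 bp from Cish were in all 4 Flt3-ITD lists alone. As deposited, a list without Flt3-ITD also held a peak in each of these union regions, which the shortening removed. The granulocyte-monocyte, megakaryocyte-erythroid, B cell, and T and NK cell lists also had 0 members in both classes as deposited. With equal lengths Il2rb of the T and NK cell list, Pecam1 of stroma and endothelium and Agbl1 of the neural list were nearest to regions of the Flt3-ITD class, and Ebf1 of the B cell and lymphoid lists to 1 of the other class. None of these regions was a member as deposited, where a list of the other side also held a peak. Flt3, Runx1, Nup98 and Hoxd13 were nearest to 0 regions of either class.

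In the Flt3-ITD class the list members were Syt1, described above, and Syk, a cytoplasmic tyrosine kinase that associates with FLT3. The Syk region lay inside the gene, 13228 bp downstream of the start site (chr13:52610110-52611099). Its −log10 p was 31.1 in set-1 Flt3-ITD, 32.9 in Flt3-ITD/Runx1-het, 8.82 in set-2 Flt3-ITD and 12.5 in NUP98-HOXD13/Flt3-ITD, with folds of 5.76, 6.23, 4.69 and 3.25. Values of both set-1 lists were above those of set 2, and the region was no member with lists of equal length. Other immune genes of this class were picked after their values were seen. A region inside Stat4, a signal transducer of interleukin-12 (chr1:52076090-52076876), had 54.9, 46.4, 7.55 and 26.9 and was a member again with equal lengths. A region 829 bp upstream of Lta4h, which encodes a leukotriene-forming hydrolase, had 39.2, 47.8, 10.7 and 42.6. A peak of a list without Flt3-ITD lay 336 bp from it.

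Among the 13 list members of the class without Flt3-ITD, transcription factors of progenitors were represented by Meis1, Etv6 and Elf1. The region inside Meis1, a homeobox factor of stem cells and of leukaemia (chr11:18896237-18896816), had a −log10 p of 16.0 in set-1 wildtype, 19.4 in Runx1-het, 28.1 in set-2 wildtype and 18.1 in NUP98-HOXD13. A Flt3-ITD list held a peak 401 bp away. Inside Etv6, an ETS-family repressor (chr6:134072509-134073334), the values were 33.5, 22.9, 21.4 and 15.2, and inside Elf1, an ETS-family factor (chr14:79542483-79543094), 21.3, 26.3, 18.3 and 11.9. The Etv6 value in set-1 wildtype stood at the middle of its list, and the other values of these 3 regions were below the middle of theirs. Of the lymphoid and dendritic cell genes Ccr9, a chemokine receptor of thymus-seeking progenitors, had a region over its start (chr9:123766950-123767468), with 21.4, 13.4, 19.5 and 9.72.

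The interferon genes Ifi44 and Zbp1 were also nearest to regions of this class. The Ifi44 region was far off, at 82829 bp (chr3:151647689-151648093), with 33.5, 23.5, 35.5 and 14.2. The Zbp1 region, beside the gene of a nucleic acid sensor, was 790 bp from the gene span (chr2:173219749-173219991), with 21.7, 22.0, 24.6 and 12.8 and a Flt3-ITD peak 442 bp away. These were 2 of 37 interferon response genes with a region. The others were Dusp6 of the MAPK feedback list, described above, Mrc1 of the fetal list, Cma1, a mast cell protease gene (lowest value 11.5), Vcam1, an adhesion molecule gene of stroma and endothelium (15.9), Ptprk (11.5), Pcdh15 (11.8) and the housekeeping gene Tbp (8.34). Ifi44 was the only one of the 13 whose region was a member with lists of equal length.

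The labelled cell type was set against marker promoters. Of 10 progenitor markers 9 had a promoter entry (Kit, Flt3, Cd34, Ptprc, Cd48, Meis1, Gata2, Myb and Runx1), and all 9 carried a peak in each of the 8 lists. Of the markers of other cells with a promoter entry, 1 of 3 for T cells (Lck) and 1 of 3 for neutrophils (Ltf) carried a peak in all 8 lists. So did the only such marker of stroma (Col1a2) and of endothelium (Tek). A peak lay in some lists over Cd79a, the only B cell marker with an entry, and over Epb42, 1 of 2 erythroid markers. These promoters thus did not separate progenitors from stroma or endothelium. A peak at a promoter is no measure of expression.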

How the data were processed

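ATAC-seq peak lists of 8 groups of 2 samples were used as deposited, 1 list per group, so no value has a replicate error and read depth is unknown. The submitters' processing notes name Bowtie2, MACS2 and the builds mm10 and GRCm38; no version, threshold or filter is stated there. Each deposited peak carries a score, a fold enrichment (ratio) and −log10 values of the authors' p-value and q-value.

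Peaks on chromosomes 1 to 19 were merged where they overlapped by at least 1 bp, in Python 3.11.15 with pandas 2.3.3. The merge was tested on simulated data. Nearest genes were spans of protein-coding genes in the RefSeq table of GRCm38.p6, and start sites came from its promoter table, which is not complete and has no entries on chromosome 18. Intervals of shares cover counting error only. The 12 leading regions per class, list members and edge cases were named by rule, in order of the lowest −log10 p. Members and lists were chosen with earlier results of these data known. No test between genotypes was made. Alternatives were equal list lengths, a q-value limit, other overlaps, chromosome X, leaving out each list, other gene limits, best-peak width and ranking by fold.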

Additional observations from a re-analysis of the deposited data

How the results depend on the processing

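With the 84080 highest peaks of every list the class without Flt3-ITD held 135 regions in place of 230, and the Flt3-ITD class 101 in place of 71. Leaving out each list in turn gave 98 to 277 regions in the Flt3-ITD class and 299 to 604 in the other. Within 1.5 times of the deposited counts were a −log10 q of at least 5 (58 and 230), an overlap of at least 100 bp (70 and 231), merging of peaks within 500 bp (65 and 192) and the addition of chromosome X (71 and 234). With genes of any type 59.2% and 63.5% of the regions lay inside a gene. Ranking by the lowest fold enrichment kept 5 of the 12 leading regions of the Flt3-ITD class and 8 of the 12 of the other. No paired analysis was possible because each group had 1 list for both samples. With no read counts, depth could not be weighed, and a missing peak does not show closed chromatin.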

Other observations

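The 4 regions below, named for their nearest gene, were picked after the values were seen, so they say nothing of a pathway, and no test was made. In the Flt3-ITD class, a region 6140 bp upstream of Tgfbr2, a receptor gene (chr9:116181503-116182091), had a −log10 p of 12.1 in set-1 Flt3-ITD, 12.7 in Flt3-ITD/Runx1-het, 6.49 in set-2 Flt3-ITD and 15.2 in NUP98-HOXD13/Flt3-ITD, with a peak of a list without Flt3-ITD 63 bp away. A region 5301 bp upstream of Nrros, which encodes a protein that holds latent TGF-beta on myeloid cells (chr16:32170895-32171685), had 72.1, 73.1, 6.55 and 16.2. In the class without Flt3-ITD, a region 3016 bp from Tgfb2, a ligand gene (chr1:186712713-186713315), had 25.7 in set-1 wildtype, 21.6 in Runx1-het, 11.2 in set-2 wildtype and 10.1 in NUP98-HOXD13. A region 1563 bp from Tgfbr3, a co-receptor gene, had a lowest value of 11.7. Of the 4, only the Nrros region was a member again with lists of equal length. The Tgfbr2 and Nrros regions were no members at a −log10 q of at least 5. The Tgfbr2 region was also lost when peaks within 500 bp were merged.

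Different regions of a list often had the same deposited value. The 71 regions of the Flt3-ITD class had 43 distinct −log10 p values in set-2 Flt3-ITD and 68 in Flt3-ITD/Runx1-het. The regions near Crisp1 and inside Mrps31, on different chromosomes, shared 17.95 in set-2 Flt3-ITD and 18.7 in NUP98-HOXD13/Flt3-ITD. Ranks among such regions are therefore coarse.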
